A study of Mus musculus with 48 samples.

Results

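Rasgrf2 (ENSMUSG00000021708) encodes a Ras and Rac exchange factor, and it was 1 of 48795 genes in the deposited count table and 1 of 19547 genes with enough counts to test. It was chosen from its levels in these same libraries, as an upper-layer gene beside Msh3 whose counts differed with Msh3 genotype. Its differences between genotype groups are therefore given as a description, with errors and without a test, and tests are kept for measures that the choice did not use. RNA was sequenced from the cerebral cortex of 48 mice aged 12 months on a C57BL/6 background, with 4 females and 4 males in each of 6 groups. The groups were wild type (WT), Msh3+/-, Msh3-/-, Q140, Q140 Msh3+/- and Q140 Msh3-/-. Q140 is a knock-in Htt allele with a long CAG repeat, used as a mouse model of Huntington disease, and the labels give it as heterozygous in the 3 groups that carry it. Msh3 encodes a mismatch repair protein known to promote the lengthening of such repeats in somatic cells. How the mutant Msh3 allele was made, and whether any mice were littermates, is not given in the sources used here.

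Rasgrf2 and its relative Rasgrf1 load GTP onto Ras, and Rasgrf2 also acts on Rac. Calmodulin binds their IQ motif, so calcium entering through NMDA receptors can raise Ras and ERK signalling through them. In the mouse cortex Rasgrf2 is widely used as a marker of upper-layer (layer 2/3) excitatory neurons. In tissue RNA such as this, fewer cells of a type and less RNA per cell cannot be told apart.

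In GENCODE M21 on GRCm38, Rasgrf2 lies on the minus strand of chromosome 13, from 91880400 to 92131656, a span of 251.3 kb. It has 6 annotated transcripts, all protein coding, with up to 34 exons, and no annotated gene overlaps it. Msh3 lies 80.2 kb beyond the Rasgrf2 start, at 92211872 to 92355003 on the same strand, with no annotated gene between them. The start region of Rasgrf2 is shown because it is the end of the gene that faces Msh3. No file used here reads its state. The 300 bases below run from 250 before to 50 after the RefSeq start on GRCm38.p6 (chr13:92131779-92132078, minus strand, 5′ to 3′). That start is 172 bp upstream of the GENCODE one. Capitals mark an E-box (CACGTG) and an overlapping CRE half-site (TGACG), which begin 47 and 43 bases before the start.
Rasgrf2 start region: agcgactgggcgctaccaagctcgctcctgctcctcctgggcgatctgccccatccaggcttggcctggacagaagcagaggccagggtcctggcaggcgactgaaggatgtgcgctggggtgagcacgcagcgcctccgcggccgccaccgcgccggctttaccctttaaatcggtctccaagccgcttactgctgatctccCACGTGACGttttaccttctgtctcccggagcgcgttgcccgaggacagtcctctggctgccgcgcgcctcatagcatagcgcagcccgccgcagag
The search covered 5 short motifs on both strands. Among 32851 RefSeq promoters of this length, 7.15% held CACGTG and 20.8% held TGACG. A GC box (GGGCGG) was not found in this window and is held by 35.7% of promoters. A CCAAT box, held by 37.4%, and a TATA box (TATAAA), held by 13.6%, were not found either. The window had a GC content of 66.0%, against a median of 52.7%. These matches describe letters only and say nothing of binding.

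Library totals ran from 37657977 to 68300525 counts, with a median of 48606408. Rasgrf2 itself had 6404 to 22912 counts per library, so counting error was at most 1.25% of its value. Levels below are in CPM, counts scaled to library size with TMM factors, unless FPKM (fragments scaled to gene length and library size) is named. Summed markers of glutamatergic neurons ran from 6210 to 7500 CPM. Summed markers of striatum ran from 141 to 189 CPM and those of hippocampus from 67.6 to 89.6 CPM. Choroid plexus markers reached 606 CPM in Msh3+/- M2 against a median of 7.05, and pituitary markers reached 40.6 CPM in WT M2 against a median of 0.0938. Rasgrf2 was 293 CPM in Msh3+/- M2, inside the range of its group, and leaving that library out moved no Rasgrf2 group difference by over 1.5 times.

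The targeted gene, Msh3, went up in the libraries labelled as mutant. Its count was 22.4 ± 1.16 CPM in WT (SD, n = 8), 60.1 ± 3.06 in Msh3+/- and 99.2 ± 8.15 in Msh3-/-. With Q140 it was 21.8 ± 0.979 CPM in Q140, 57.9 ± 3.01 in Q140 Msh3+/- and 95.3 ± 8.03 in Q140 Msh3-/-. Across the 48 libraries the 3 labelled Msh3 genotypes had separate Msh3 ranges, with 20.5 to 23.7 CPM for +/+, 54.4 to 64.7 for +/- and 83.2 to 110 for -/-. The count therefore sorts the libraries by label but shows no loss of Msh3 RNA, and the group names below are those of the labels.

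Rasgrf2 was highest in WT and Q140, intermediate in the groups labelled Msh3+/-, and lowest in those labelled Msh3-/-. In WT it ran from 292 CPM (F3) through a median of 339 to 374 (M3), with a mean of 331 ± 26.1 (SD, n = 8). In Msh3+/- it ran from 259 (F4) through 271 to 297 (M4), with a mean of 275 ± 13.9. In Msh3-/- it ran from 156 (F3) through 178 to 194 (M2), with a mean of 176 ± 12.5. The lowest WT library was under the highest Msh3+/- library, whereas all Msh3-/- libraries lay below all the others without Q140.

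The groups with Q140 followed the same order. Q140 libraries ran from 277 CPM (F1) through a median of 319 to 361 (M3), with a mean of 315 ± 24.9 (SD, n = 8). Q140 Msh3+/- libraries ran from 220 (M1) through 244 to 258 (M3), with a mean of 241 ± 13.8. Q140 Msh3-/- libraries ran from 157 (F1) through 163 to 202 (M4), with a mean of 169 ± 14.8. No 2 of these 3 ranges overlapped. Per length, the Msh3+/+ means were 37.3 FPKM without Q140 and 35.8 with it, the Msh3+/- means 31.1 and 27.5, and the mean with Q140 Msh3-/- was 19.2 FPKM.

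**Figure D1:**
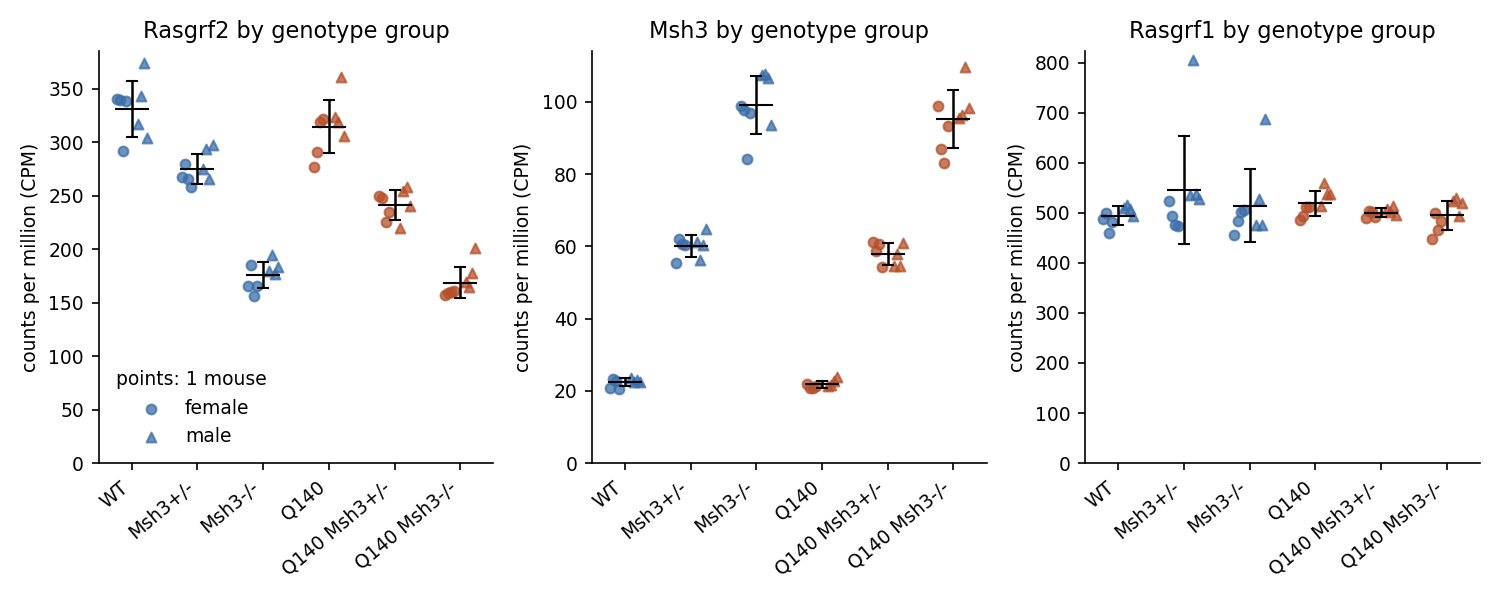
Levels of Rasgrf2, Msh3 and Rasgrf1 (vertical axes, CPM, starting at 0) in each mouse, with circles for females, triangles for males, blue without Q140, orange with Q140, and bars for the mean ± SD of 8 mice. Rasgrf2 steps down from 331 CPM in WT to 275 and 176 with Msh3 genotype while Msh3 steps up from 22.4 to 99.2, and Rasgrf1 has 1 high library in Msh3+/- (805) and 1 in Msh3-/- (687).

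Ordered by mean, the groups ran WT, Q140, Msh3+/-, Q140 Msh3+/-, Msh3-/-, Q140 Msh3-/-. WT and Q140 differed by 16.5 CPM, 0.632 of the larger of their SDs, and Msh3-/- and Q140 Msh3-/- by 7.0 CPM, 0.473 of the larger SD, so neither pair stood apart beyond its spread. Q140 and Msh3+/- differed by 39.4 CPM, 1.58 times the larger SD, with overlapping ranges (277 at the lowest Q140 library against 297 at the highest Msh3+/- library). Msh3+/- and Q140 Msh3+/- just failed to overlap, at 258.5 against 258.4 CPM, with means 2.44 SDs apart. The largest step was from Q140 Msh3+/- to Msh3-/-, 65.6 CPM or 4.75 SDs. Taking both Q140 states together, the 16 libraries of each Msh3 genotype held 323 ± 26.1 CPM for +/+ (277 to 374), 258 for +/- (220 to 297, with a median of 258) and 172 ± 13.7 for -/- (156 to 202).

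On a linear scale, Msh3+/- libraries held 83.1 ± 2.75% of the WT level (SE) and Msh3-/- libraries 53.1 ± 1.99%. With Q140 the matching shares of the Q140 level were 76.7 ± 2.65% and 53.6 ± 2.24%. Of the whole fall from WT to Msh3-/-, 155 CPM, the Msh3+/- group had made 35.98 ± 5.05%. Of the fall of 146 CPM from Q140 to Q140 Msh3-/-, the Q140 Msh3+/- group had made 50.2 ± 4.84%. The heterozygous level thus sat nearer to WT than to Msh3-/- without Q140, and midway with Q140.

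The edgeR fit over all 48 libraries, with sex as a covariate, gave the same differences as log2 fold changes. They were -0.27 ± 0.044 (SE) for Msh3+/- against WT and -0.92 ± 0.044 for Msh3-/- against WT. With Q140 they were -0.38 ± 0.044 and -0.90 ± 0.044. From heterozygous to homozygous the level fell by 0.65 ± 0.044 without Q140 and by 0.52 ± 0.044 with it. On this scale Msh3+/- lay 0.19 ± 0.038 above the midpoint of WT and Msh3-/-, and Q140 Msh3+/- lay 0.07 ± 0.038 above its own midpoint.

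**Figure D2:**
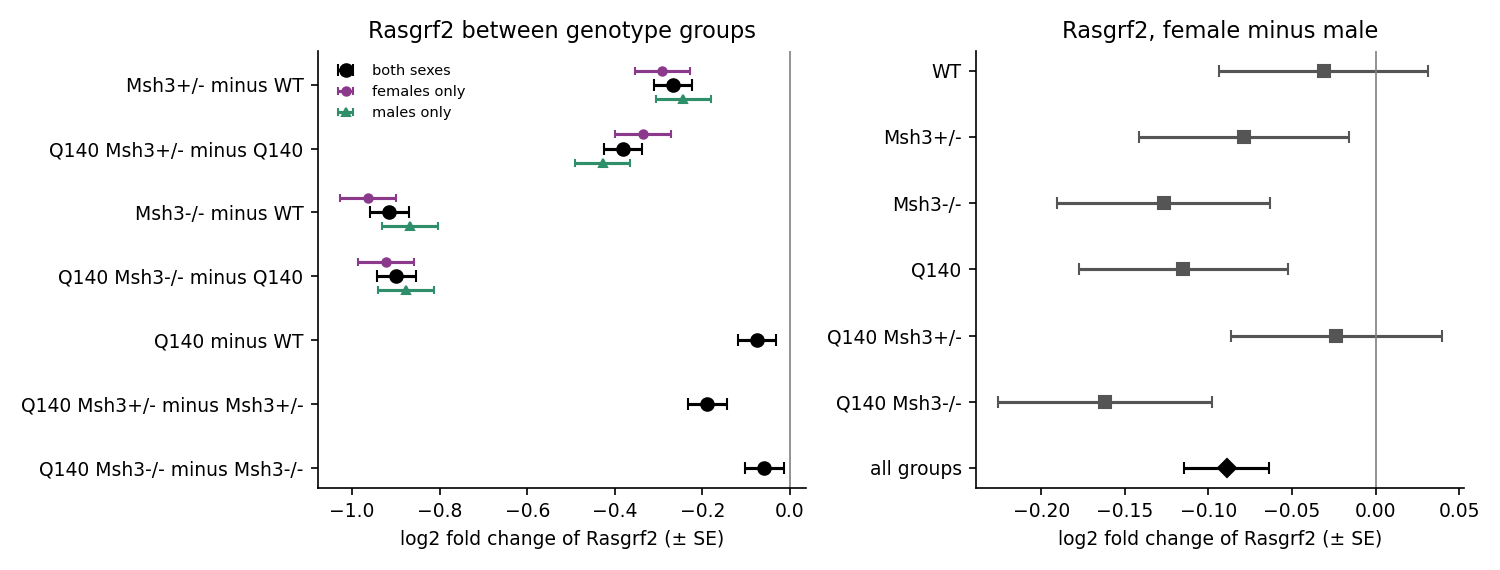
Log2 fold changes of Rasgrf2 (horizontal axes, bars are SE) between genotype groups on the left, with both sexes in black and each sex in colour, and between females and males within each group on the right. With both sexes together Msh3-/- contrasts lie near -0.9 and Msh3+/- contrasts at -0.27 and -0.38, the latter reaching from -0.24 to -0.43 in single sexes, and the female minus male values lie below 0 in all 6 groups.

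Q140 went with a smaller difference, which was widest on the Msh3+/- genotype. The log2 fold change with Q140 was -0.08 ± 0.044 (SE) on Msh3+/+, -0.19 ± 0.044 on Msh3+/- and -0.06 ± 0.045 on Msh3-/-. With the mean of 19 other upper-layer genes as a covariate, the 3 values were -0.02, -0.13 and -0.04. In Q140, 2 of 8 libraries lay below the lowest WT library. In Q140 Msh3+/-, 8 of 8 lay below the lowest Msh3+/- library, and in Q140 Msh3-/- 0 of 8 lay below the lowest Msh3-/- library. Below the median of the matching group without Q140 lay 7 of 8 Q140, 8 of 8 Q140 Msh3+/- and 7 of 8 Q140 Msh3-/- libraries. Against the Q140 shift on Msh3+/+, the shift on Msh3+/- differed by -0.11 ± 0.062 and that on Msh3-/- by 0.02 ± 0.062, each from the fitted interaction and given as a description. Without Q140 Msh3-/- M4, the library of 202 CPM in which the summed upper-layer markers were also highest of the 48, the shift on Msh3-/- was -0.09 and its difference from that on Msh3+/+ was -0.02. That difference turned sign in 6 of 58 alternatives, so its direction is not given by these data.

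Averaged over Q140, Rasgrf2 was -0.32 ± 0.031 (SE) on the log2 scale for Msh3+/- and -0.91 ± 0.031 for Msh3-/-, each against Msh3+/+. Averaged over Msh3 genotype, it was -0.11 ± 0.025 with Q140. By the rule used here to call a gene (edgeR quasi-likelihood test, Benjamini-Hochberg adjusted p under 0.05), 0.0512% of the 19547 tested genes were called in the Msh3+/- contrast (10 genes), 0.215% in the Msh3-/- contrast (42 genes) and 1.47% in the Q140 contrast (288 genes). Rasgrf2 was chosen on these contrasts, so nothing is read from its own place among them. When the mean of the 19 other upper-layer genes entered the fit as a covariate, the Rasgrf2 values became -0.38 for Msh3+/-, -0.95 for Msh3-/- and -0.06 for Q140.

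Sex was not used in choosing the gene, and Rasgrf2 was lower in females. Female libraries averaged 328 CPM in WT, 268 in Msh3+/- and 168 in Msh3-/- (n = 4 each), against 335, 283 and 183 in males. With Q140 they averaged 302, 240 and 159 CPM against 327, 243 and 178 in males. The female mean was the lower one in 6 of 6 groups, although the ranges of the sexes overlapped in every group except Q140 Msh3-/- (157 to 161 CPM in females, 165 to 202 in males). The log2 difference was -0.09 ± 0.025 (SE), with an edgeR adjusted p of 0.0304, where 4.28% of tested genes were called. Within groups it ranged from -0.02 in Q140 Msh3+/- to -0.16 in Q140 Msh3-/-. The call is close to its threshold. The adjusted p was 0.055 with plate column in the edgeR fit, 0.0991 with plate row and up to 0.056 when 1 library was left out, and 5 single libraries ended the call (WT F3, WT M3, Q140 M3, Msh3-/- F3 and Q140 Msh3-/- M4).

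Rasgrf1, the closest relative of Rasgrf2, was also lower in females, by -0.13 ± 0.035 on the log2 scale (edgeR adjusted p = 0.0241). Msh3+/- M2 and Msh3-/- M4, both males, stood far above the others in Rasgrf1, and without these 2 libraries, a choice made after seeing the data, the Rasgrf1 difference was -0.08 ± 0.017 (edgeR adjusted p = 0.00215). The Rasgrf1 call did not hold with plate column in the fit (-0.11, edgeR adjusted p = 0.0554), without the low-count filter (-0.13, 0.0504), or without 14 libraries over 5 times the median of choroid plexus or pituitary markers (-0.07, 0.0775). Most of these 14 libraries were WT or Msh3+/-, which left few mice in those groups. All 13 genes of an immediate early list, whose RNA rises with neuronal activity, had fitted values below 0 in females, with a median of -0.21 against -0.00030 over all tested genes, and none was called (4 of the 13 had an unadjusted p under 0.05, against 17.4% of all tested genes). Their part in the Rasgrf2 difference was not tested. The fall with the Msh3-/- genotype was -0.94 ± 0.045 in females and -0.87 ± 0.045 in males, and the difference between them was -0.07 ± 0.063 (edgeR adjusted p = 0.864). The averaged Q140 shift was -0.12 ± 0.037 in females and -0.10 ± 0.036 in males, a difference of -0.02 ± 0.052 (edgeR adjusted p of 1). These p-values do not show that the sexes respond alike. No gene was called in either of these edgeR sex interaction contrasts, 0% of 19547, with 1306 and 510 genes at an unadjusted p under 0.05.

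Rasgrf1 was not called by edgeR in the averaged Msh3+/-, Msh3-/- or Q140 contrast. Its contrasts between single groups are not given here. Per length the levels of both were close in WT, at 44.4 ± 1.75 FPKM for Rasgrf1 (SD, n = 8) and 37.3 FPKM for Rasgrf2. In Msh3+/- the Rasgrf1 level was 49.1 ± 9.4 FPKM, and in Msh3-/- it was 46.6 ± 6.56. With Q140 it was 47.0 ± 2.25 FPKM on Msh3+/+, 45.4 ± 0.846 on Msh3+/- and 44.9 ± 2.88 on Msh3-/-. Its averaged log2 fold changes were 0.04 ± 0.043 (SE) for Msh3+/-, -0.0062 ± 0.043 for Msh3-/- and -0.03 ± 0.035 for Q140, with edgeR adjusted p of 0.803, 0.962 and 0.694. The wide spread in Msh3+/- and Msh3-/- came from M2 (805 CPM) and M4 (687 CPM), and without them the groups held 509 ± 28.0 and 489 ± 24.2 CPM. Without Msh3+/- M2 the averaged Msh3+/- value was -0.00057. Of the summed FPKM of both genes, Rasgrf2 made up 45.7 ± 1.6% in WT, 39.1 ± 3.36% in Msh3+/- and 30.2 ± 2.59% in Msh3-/-. With Q140 the shares were 43.2 ± 1.52%, 37.7 ± 1.39% and 30.0 ± 1.56%.

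Other genes of Ras and ERK signalling showed no edgeR call with Msh3 genotype. A list of 77 genes held exchange factors, GTPases, their inactivating proteins, kinases and scaffolds, feedback inhibitors and calcium inputs, and 76 of them were tested. None was called in the Msh3+/- or the Msh3-/- contrast by edgeR. It called 0.0512% and 0.215% of all tested genes there, so an empty count is near the background. At an unadjusted p under 0.05 there were 13 and 17 of the 76, a threshold that 8.14% and 14.9% of all tested genes passed. DESeq2 called 0 and 4, the 4 being Rac1, Rala and Calm2, which were lower, and Rasa4, which was higher. The share of all genes that DESeq2 called is not given here, so the 4 cannot be set against a background. The median log2 fold change of the list was 0.0030 and 0.0021, against 0.0026 and 0.0048 over all tested genes. The fitted values of the 76 ran from -0.22 to 0.20 in the Msh3-/- contrast, so all lay well inside the -0.91 of Rasgrf2.

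By role, the most abundant exchange factors per length were Rasgrp1, a diacylglycerol-responsive Ras activator (100.2 FPKM), and Rapgef4, a cAMP-responsive Rap activator (89.1 FPKM). Their Msh3-/- log2 values were -0.07 and -0.05. Among the GTPases, Mras and Rac1 had -0.03 and -0.09. Spred1, which helps to inactivate Ras as a partner of neurofibromin, had -0.11. Map2k1, which encodes the kinase MEK1, had 0.04. Dusp6 and Spry2, feedback inhibitors of ERK signalling, had 0.04 and -0.03. Calm2 and Calm3, which encode calmodulin, had -0.09 and 0.01, and none of these genes was called by edgeR.

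In the Q140 contrast 2 of the 76 genes were called by edgeR, both lower, where 1.47% of all tested genes were called, so the count is near the background. One was Grin2a, an NMDA receptor subunit gene, which fell by 0.11 ± 0.028 on the log2 scale (SE; edgeR adjusted p = 0.0243). The Grin2a call did not hold with plate column (edgeR adjusted p = 0.107) or plate row (0.053) in the fit. All 7 feedback inhibitors had values above 0, from 0.02 to 0.15, and none was called. The list median was 0.0034, against -0.00085 over all genes. Between the sexes edgeR called 7 of the 76, where 4.28% of all tested genes were called. Of these, 5 were lower in females, Rasgrf1, Rapgef1, Rasgef1a and Mapk3 among them, and Rgl3 and Rasa4 were higher.

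**Figure D3:**
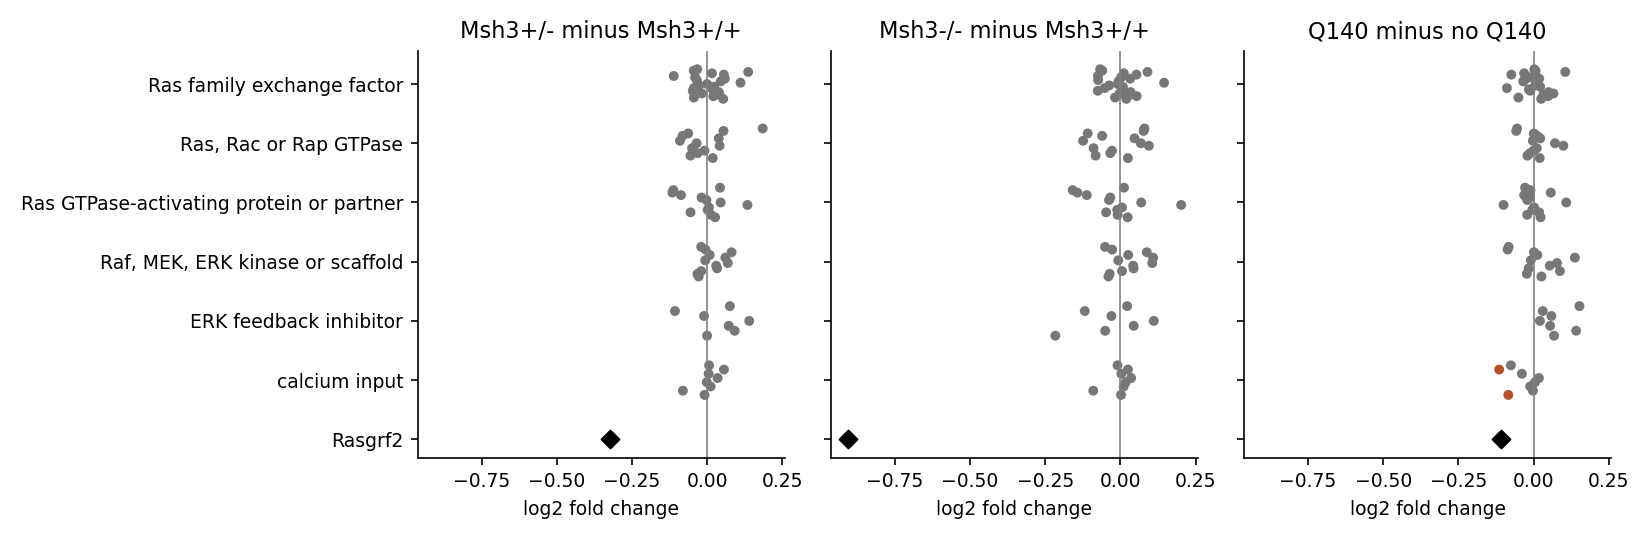
Log2 fold changes (horizontal axes) of the 76 tested Ras and ERK pathway genes by role, with Rasgrf2 as a black diamond, for the Msh3+/- and Msh3-/- contrasts averaged over Q140 and the Q140 contrast averaged over Msh3 genotype. Orange points passed the edgeR threshold (2 genes with Q140, Grin2a among them), and no list gene lies near the -0.91 of Rasgrf2 in the Msh3-/- contrast.

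No other upper-layer gene was called with Msh3 genotype. Of 19 such genes tested, such as Cux2, Lamp5, Rorb and Calb1, edgeR called none in the Msh3+/- or Msh3-/- contrast. It called 0.0512% and 0.215% of all tested genes there, so an empty count in a short list is near the background. At an unadjusted p under 0.05 there were 5 and 6 of the 19, all of them above 0. DESeq2 also called none in either contrast. Their median was 0.06 in each contrast, with 16 of 19 above 0. Genes of layer 5 had medians of -0.11 and -0.12, with 11 and 12 of 13 below 0, and genes of layer 6 had -0.13 and -0.10, with 10 and 11 of 11 below 0. None of those was called by edgeR either, with 6 and 8 of 13 layer 5 genes and 2 and 2 of 11 layer 6 genes at an unadjusted p under 0.05. Over all tested genes the shares under that p were 8.14% in the Msh3+/- contrast and 14.9% in the Msh3-/- contrast. Rasgrf2 thus lay below 0 where the median of its layer list lay above 0. The part of layer content in the Rasgrf2 differences was not tested. The covariate fit above cannot measure it, since the list values themselves lay mostly above 0 with Msh3 genotype and mostly below 0 with Q140.

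With Q140, 3 of the 19 upper-layer genes fell beside Rasgrf2, where 1.47% of all tested genes were called in either direction. Lamp5, a lysosome-associated membrane protein gene, fell by 0.17 (edgeR adjusted p = 0.00744). Stard8, a gene of a GTPase-activating protein, fell by 0.16 (edgeR adjusted p = 0.000542). Penk, the enkephalin precursor, fell by 0.22 (edgeR adjusted p = 0.00369). The list median was -0.04, with 13 of 19 below 0. With the list mean as a covariate the values were -0.13 for Lamp5 (edgeR adjusted p = 0.0874), -0.10 for Stard8 (0.0325) and -0.16 for Penk (0.0669). These 3 genes are themselves part of that mean, so each was adjusted in part for itself.

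Within groups, Rasgrf2 went with the mean of the upper-layer list in the main run, and no relation to Msh3 was detected. For this, each library was expressed as its deviation from the mean log2 CPM of its genotype and sex, and 6 relations were tested over 48 libraries by permutation within genotype and sex (100000 permutations, two-sided). With the mean of the upper-layer list, Pearson's r was 0.537 (permutation p = 0.00035, adjusted over the 6 relations 0.0021) and Spearman's rho 0.509 (permutation p = 0.00157, adjusted 0.00942). Without the 2 libraries farthest from the median list mean, r was 0.541. With the layer 5 mean, r was -0.403 (permutation p = 0.0103, adjusted 0.0308) and rho -0.373 (permutation p = 0.0166, adjusted 0.0418), and r was -0.326 without the 2 farthest. With the layer 6 mean, r was -0.404 (permutation p = 0.0188, adjusted 0.0377) and rho -0.379 (permutation p = 0.0209, adjusted 0.0418), and r was -0.361 without the 2 farthest. Libraries high in Rasgrf2 for their group thus tended to be high in the upper-layer list mean and low in the deep-layer list means.

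Centred also by plate column, r was 0.421 for the upper layers with an adjusted permutation p that still passed, but -0.336 and -0.298 for layers 5 and 6, with adjusted permutation p of 0.0748 and 0.139. Without Q140 Msh3-/- M4 the layer 5 value was -0.307, with an adjusted p over the threshold. None of these 3 relations passed when 14 libraries over 5 times the median of choroid plexus or pituitary markers were left out (adjusted permutation p = 0.114 for each), with r of 0.495, -0.401 and -0.531. That run kept 34 libraries, with few of WT and Msh3+/-. With Msh3, r was 0.0581 (permutation p = 0.717, adjusted 0.717) and rho 0.0506 (permutation p = 0.754, adjusted 0.754), and r was -0.0080 without the 2 farthest libraries. Within the 16 libraries of each Msh3 genotype, r with Msh3 was -0.239 for +/+ (permutation p = 0.444), 0.124 for +/- (permutation p = 0.688) and 0.256 for -/- (permutation p = 0.376). Within a genotype Msh3 ran from 20.5 to 23.7 CPM for +/+, 54.4 to 64.7 for +/- and 83.2 to 110 for -/-. These ranges are narrow beside the steps between genotypes. The SD within the 6 groups was 4.49 to 8.42% of the mean for Msh3 and 5.05 to 8.76% for Rasgrf2. With ranges this narrow beside those steps and this sample number, these relations do not show whether the order between genotypes also holds within them. The immediate early mean (r = 0.215, permutation p = 0.249, adjusted 0.363, rho 0.0532) and the log2 library total (r = 0.171, permutation p = 0.303, adjusted 0.363, rho 0.157) gave no relation past the threshold, and r was 0.116 and 0.151 without the 2 farthest.

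**Figure D4:**
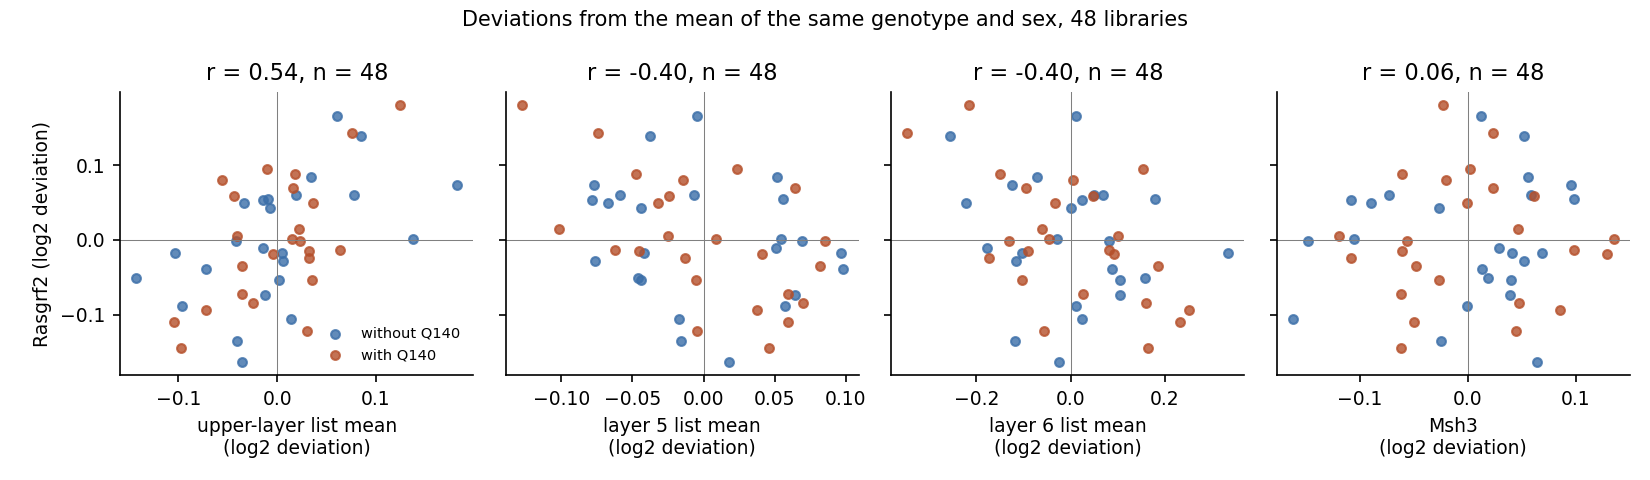
Deviation of Rasgrf2 (vertical axes, log2) against the deviation of the upper-layer, layer 5 and layer 6 list means and of Msh3 (horizontal axes, log2) in 48 libraries, each centred on its genotype and sex. The points rise for the upper layers (r = 0.537), fall for layers 5 and 6 (r = -0.403 and -0.404) and show no slope for Msh3 (r = 0.0581).

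The genes most like Rasgrf2 within groups were sought among 15083 others with a mean count of at least 50, as a description over the same 48 libraries. The 8 with the highest r were Rragd, a GTPase of amino acid sensing (0.664), Fzd3, a Wnt receptor (0.661), Kcnb2, a potassium channel (0.661), Arhgap32, a GTPase-activating protein (0.659), Gucy1a3, a guanylate cyclase subunit (0.644), Lrrtm4, a synaptic adhesion protein (0.640), Dpp10, a potassium channel partner (0.617), and Atp2b3, a calcium pump (0.612). The 4 with the lowest were Myl4, a myosin light chain (-0.715), Hs3st2, a heparan sulfate sulfotransferase (-0.693), Pde4a, a cAMP phosphodiesterase (-0.623), and Rassf5, a Ras effector (-0.621). None of these 12 genes lies on chromosome 13. None was called by edgeR in the Msh3-/- contrast, where only 0.215% of all tested genes were called, so an empty count is near the background. Their log2 values there ran from -0.07 (Pde4a) to 0.09 (Gucy1a3). The median r over all genes compared was -0.0011. These values share their libraries and their scaling.

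Across the 6 group means the closest genes were others. The search was limited to the 179 other genes that spanned at least 0.5 log2 units between their highest and lowest group, so genes with a smaller span, such as Ankrd34b, were not compared. By the correlation of group means (n = 6, a description), the 5 closest of these in either direction were Cmya5 (0.998), AW495222 (0.987), F2r (-0.975), F2rl2 (0.974) and Gm42984 (-0.951). Of these, 4 lie on chromosome 13 within 5 Mb of Rasgrf2, and Gm42984 lies on chromosome 5. Cmya5, a gene named for its link to cardiomyopathy, held 16.6 CPM in WT, 13.3 in Msh3+/- and 7.87 in Msh3-/-, and 16.4, 11.9 and 7.71 with Q140. F2rl2, a protease-activated receptor gene, held 2.71, 1.78 and 1.197 CPM without Q140, and F2r, the thrombin receptor gene, rose in the same order from 3.72 to 4.78 and 6.23 CPM.

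In the Msh3-/- contrast, log2 fold changes were -1.09 ± 0.052 (SE) for Cmya5 (edgeR adjusted p = 2.6e-23), -1.10 ± 0.079 for AW495222 (edgeR adjusted p = 1.2e-15), -1.08 ± 0.119 for F2rl2 (edgeR adjusted p = 6.53e-09) and 0.70 ± 0.070 for F2r (edgeR adjusted p = 2.62e-10). Gm42984 had 0.81 ± 0.27 (edgeR adjusted p = 0.16) and was not called. These contrasts use the same libraries as those of Rasgrf2, and the genes were picked for group means that track those of Rasgrf2. Their differences with Msh3 genotype thus follow in part from that choice and give no separate support for the likeness. In the Msh3+/- contrast Cmya5 had -0.40 (edgeR adjusted p = 2.85e-07), AW495222 -0.42 (0.000902) and F2rl2 -0.52 (0.0419), and F2r had 0.29 (0.29). The F2rl2 call in the Msh3+/- contrast was lost when 24 of the 48 libraries were left out one at a time, and with plate column in the fit (-0.45, edgeR adjusted p = 0.255). The AW495222 call was lost with plate column too (-0.33, edgeR adjusted p = 0.0861). Without the same 14 libraries, which left few WT and Msh3+/- mice, both calls were lost, at -0.43 and -0.36.

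Around Rasgrf2 itself, called genes lay among others that did not pass. Within 1 Mb, 15 genes other than Rasgrf2 and Msh3 were tested. In the Msh3-/- contrast edgeR called 2 of them, both lower, or 13.3% against 0.215% of all tested genes. Ankrd34b, an ankyrin repeat gene 0.294 Mb from the Rasgrf2 start, had -0.35 ± 0.035 (SE; edgeR adjusted p = 1.73e-10), and Thbs4, the gene of the matrix protein thrombospondin 4 at 0.663 Mb, had -0.66 ± 0.145 (edgeR adjusted p = 0.0231). The Thbs4 level was low, at 1.82 ± 0.366 CPM in WT (SD, n = 8) and 1.25 CPM in Msh3-/-. Ankrd34b was also called in the Msh3+/- contrast, at -0.18 ± 0.034 (edgeR adjusted p = 0.00751), a call lost with plate column in the fit (-0.17, edgeR adjusted p = 0.0861) and without the 14 libraries (-0.20, 0.167), with values close to the first. Without the 14 libraries the Thbs4 call in the Msh3-/- contrast was also lost (edgeR adjusted p = 0.136), at a log2 value of -0.77. Zcchc9, the nearest tested gene on the side away from Msh3, had -0.11 ± 0.039 (edgeR adjusted p = 0.161) and did not pass.

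Further genes within 1 Mb, Atg10, Ssbp2, Acot12, Fam151b, Zfyve16, Serinc5 and Mtx3, were not called by edgeR. Mtx3, a mitochondrial metaxin gene, came closest, at -0.11 ± 0.027 (edgeR adjusted p = 0.0541). Within 5 Mb, edgeR called 13 of 60 genes, 10 lower and 3 higher, or 21.7% against 0.215% of all tested genes, and within 10 Mb the count was the same 13 of 117. Of the 13, Vcan alone lay on the far side of Rasgrf2 from Msh3, 2.39 Mb away, and the others lay up to 4.94 Mb away on the Msh3 side. Rasgrf2 had the highest mean level of all these called genes, and the next, Arsb, had 141 CPM. In the Q140 contrast, where 1.47% of all tested genes were called, edgeR called 0 of the 60 genes within 5 Mb and 2 of the 117 within 10 Mb (1.71%), Enc1 and Cartpt, both lower and named here after their values were seen.

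**Figure D5:**
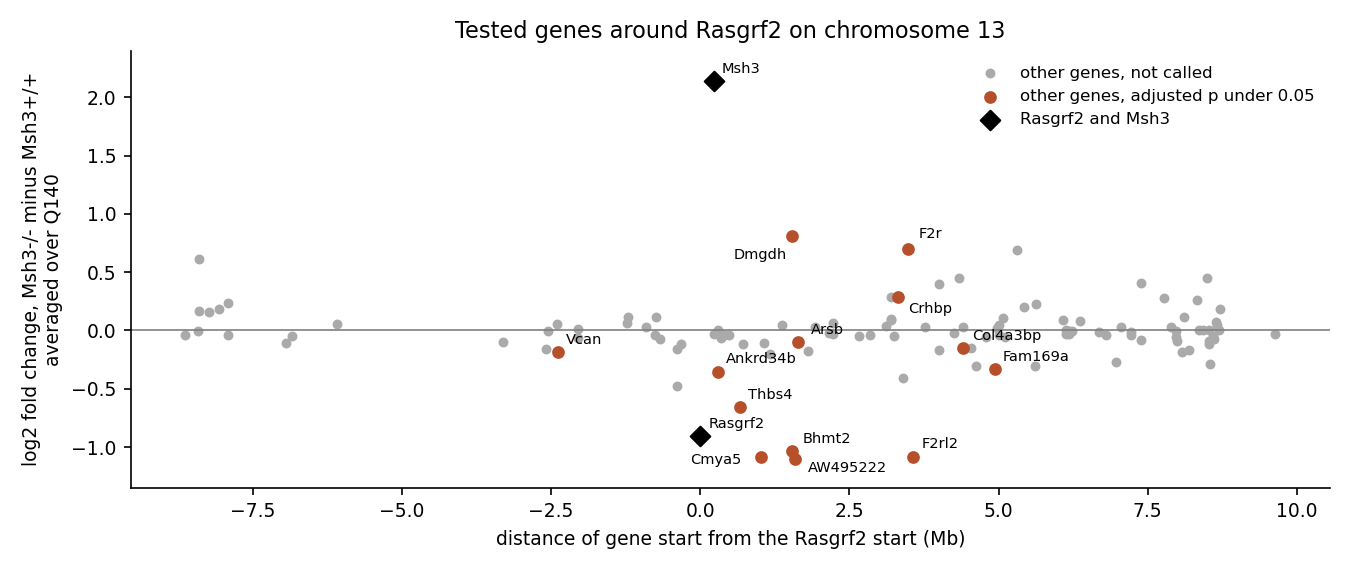
Log2 fold change in the Msh3-/- contrast averaged over Q140 (vertical axis) of the tested genes on chromosome 13 against the distance of each gene start from that of Rasgrf2 (horizontal axis, Mb), with called genes in orange and Rasgrf2 and Msh3 as diamonds. The 13 called genes lie between 2.39 Mb on one side and 4.94 Mb on the other, among grey genes that did not pass.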

How the data were processed

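Gene-level read counts (whole numbers) were made by the authors, and FPKM values were deposited beside them, per the file headers. Per the submitters' processing notes, STAR 2.7.5c, SAMtools 1.10 and HTSeq 0.12.3 were used, with builds GRCm38 and mm10. The libraries are stranded per the labels' protocols, and the strand setting of the counting and the annotation release are not given in the sources used here. The labels' extraction protocol mentions striatum and a younger age. The tissue and age labels say cortex at 12 months and were followed. The authors' FPKM values were used for levels per length only.

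Genes passed edgeR's filterByExpr (minimum count 10, minimum total 15). TMM scaling and edgeR 4.0.16 quasi-likelihood tests (R 4.3.3) were fitted over 48 libraries with 6 groups and sex, with Benjamini-Hochberg adjustment over 19547 genes. The tests were checked on simulated data. Correlations used log2(CPM + 0.5). Named genes were Rasgrf2, Msh3, Rasgrf1, called genes of the pathway and upper-layer lists, the 2 of highest FPKM per role, the genes most like Rasgrf2, and symbols within 1 Mb, a few of which are not reported here. The gene and the lists were chosen with earlier results of these data known. Alternatives included DESeq2 1.42.0, limma 3.58.1 with the library name prefix as a random block, plate position, and leaving out each library. No 2 libraries of the same group agreed within sampling noise (168 pairs, mean chi-square per gene at least 6.99). As the labels do not say which mice share a litter, p-values measure the spread between these mice.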

Additional observations from a re-analysis of the deposited data

Results flagged for a closer look

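Groups of 8 libraries were searched for a highest or lowest library whose gap to the next, divided by the range of the group, was over Dixon's critical value for 8 samples. Of 84 groups (14 genes in 6 groups), 7 met this, and chance gives about 1 in 20. In Q140 Msh3-/- the highest Rasgrf2 library was M4 at 201.5 CPM, with the next at 177.8 and a ratio of 0.536, and without it the group held 164 ± 7.18 CPM (SD). On the log2 scale its ratio was 0.505, under the limit.

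The Rasgrf1 level stood apart in Msh3+/- M2, at 805.3 CPM with the next at 537.5, and in Msh3-/- M4, at 686.6 CPM with the next at 528.3. Rasgrf2 in these 2 libraries was 293 and 183 CPM, inside the range of each group. Msh3+/- M2 was also the library with 606 CPM of choroid plexus markers, whose part was not tested. Rasgrf1 is known as an imprinted gene in mouse brain, and no file used here reads its alleles.

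Among the other genes, Grin2a was highest in Q140 M2 at 285.5 CPM (next 259.4). Thbs4 was lowest in WT M4 at 1.075 CPM (next 1.64). F2r was lowest in Msh3+/- M4 at 2.758 CPM (next 4.786). F2rl2 was highest in Q140 Msh3-/- F1 at 1.828 CPM (next 1.243).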

How the results depend on the processing

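Of the 17 Rasgrf2 genotype differences, 12 stayed within 1.5 times of their value in every alternative run. With the upper-layer covariate, Q140 minus WT was -0.0188, the Q140 shift on Msh3-/- -0.0365, the averaged Q140 shift -0.0634, and the distance of Q140 Msh3+/- from its midpoint 0.0442. Without Q140 Msh3-/- M4 the Q140 shift on Msh3-/- was -0.093. The difference between the Q140 shifts on Msh3-/- and Msh3+/+ (0.0162) ran from -0.0181 (without that library) to 0.0453 (plate row) and was negative in 6 of 58 alternatives: plate column, the covariate, and without Msh3-/- F3, Q140 Msh3-/- M4, Q140 F1 or WT M3. None of the other 16 differences changed sign. The sex difference stayed negative but did not pass without the low-count filter (-0.0891, edgeR adjusted p = 0.0516), with plate column (-0.0843), with plate row (-0.0885), without 14 libraries over 5 times the median of choroid plexus or pituitary markers (-0.106, adjusted p = 0.0522), or in limma with the name prefix as a random block (-0.0888). Leaving out 1 library gave -0.0994 to -0.0781. Most of the 14 libraries met the rule through pituitary markers, whose median was 0.0938 CPM. They included WT F3, F4, M2, M3 and M4 and Msh3+/- F1, F4, M1, M2 and M3, and none of Q140 Msh3-/-. Few mice thus remained in WT and Msh3+/-, and the cause of the losses was not tested. Without the 14 libraries the relation to the upper-layer mean was 0.495, to layer 5 -0.401 and to layer 6 -0.531, each with an adjusted permutation p of 0.114. With plate column centred, layer 5 gave -0.336 and layer 6 -0.298. Leaving out 1 library gave 0.473 to 0.577, -0.441 to -0.307 and -0.465 to -0.325, and the call ended for layer 6 in 13 of the 48 cases and for layer 5 in 6 (Q140 M3, Q140 Msh3+/- F3, M1 and M3, Q140 Msh3-/- M2 and M4).

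Pathway genes called in the Msh3-/- contrast numbered 4 in DESeq2, 1 with the upper-layer covariate, and 0 to 3 with 1 library left out (above 0 without WT F2, Q140 F4, Q140 M1, Msh3-/- M4, Q140 Msh3-/- F1 or Q140 Msh3-/- M2). In the Q140 contrast they numbered 1 with plate column, plate row or the upper-layer covariate, 0 without the 14 libraries, and 2 to 4 with 1 library left out (4 without Msh3+/- F4). Upper-layer genes called with Q140 fell to 1 with the covariate, whose mean holds those genes. DESeq2 gave no adjusted p for F2rl2, Thbs4, F2r and AW495222 in the Msh3-/- contrast. The labels do not say that replicate numbers pair the mice. Of 120 same-numbered pairs, 27 had deviations correlated over 0.1, with a median of 0.0118 and a highest value of 0.578. Pairs of unlike number were not compared, so partial pairing was not tested. With the replicate block, pathway genes called in the Msh3-/- contrast were 3 (Rac1, Rala and Calm2) against 0. The share of all tested genes called in each of these alternative runs is not given here. Depth limits low genes such as Thbs4 and F2rl2, and not Rasgrf2.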
